A study of Mus musculus with 6 samples.

Results

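The globin family was read here as 10 genes of the mouse ovary, the neuroglobin gene *Ngb*, the cytoglobin gene *Cygb*, the myoglobin gene *Mb*, and the haemoglobin genes *Hba-a1*, *Hba-a2*, *Hba-x*, *Hbb-bs*, *Hbb-bt*, *Hbb-y* and *Hbb-bh1*. These are 10 of the 54532 genes in the expression table, and each was found there by its symbol. The set was drawn up because *Ngb* and *Hbb-y* were higher in *Srsf1* cKO ovaries, so the differences of the 10 genes between cKO and Ctrl are given as values with no test. Tests are given for genes outside the set, and the lists of those genes were drawn up with earlier results of these data known.

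RNA of whole ovaries of C57BL/6 mice at 16.5 dpc was sequenced in 3 Ctrl and 3 cKO libraries, with the question of what the loss of the splicing factor SRSF1 does to the transcriptome of the fetal ovary. Ctrl mice are wild type in the sample labels, and cKO mice carried *Stra8-GFPCre* and *Srsf1* Fl/Fl, in which Cre removes exons 2, 3 and 4 of *Srsf1*. *Stra8-GFPCre* is active in germ cells as they enter meiosis, so by design blood cells, vessels and the other somatic cells of a cKO ovary should keep the floxed gene. The paper reports loss of the protein in oocytes, and values of whole ovaries do not show which cells lost the gene. The labels do not say how many animals each library holds, and p-values therefore measure the spread between these libraries only. Poly-A RNA was read, and the values are FPKM (fragments scaled to gene length and to library size), which the authors made from reads aligned with HISAT2.

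Globins are small haem proteins that bind oxygen and other gases. Haemoglobin of the red cell is built from alpha-like chains, whose genes lie in order of use on chromosome 11, and beta-like chains, whose genes lie on chromosome 7. Primitive red cells, which arise in the yolk sac and circulate in the embryo, make the embryonic chains of *Hba-x* (zeta), *Hbb-y* (epsilon y) and *Hbb-bh1*, while definitive red cells, made in the fetal liver at this age, make the adult chains of *Hba-a1*, *Hba-a2*, *Hbb-bs* and *Hbb-bt*. Neuroglobin is known from neurons and the retina, cytoglobin from fibroblast-like cells of many organs and myoglobin from heart and skeletal muscle.

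In the coordinates of the table (GRCm38), the alpha-like genes lie on the plus strand of chromosome 11, *Hba-x* from 32276400 to 32278116, *Hba-a1* from 32283511 to 32284465 and *Hba-a2* from 32296489 to 32297298. On the minus strand of chromosome 7 lie *Hbb-bt* (103812524 to 103813996), *Hbb-bs* (103826534 to 103828096), *Hbb-bh1* (103841637 to 103843164) and *Hbb-y* (103851749 to 103853216). The other members stand alone on minus strands, *Ngb* on chromosome 12 (87097531 to 87102539), *Cygb* on chromosome 11 (116645595 to 116654313) and *Mb* on chromosome 15 (77015487 to 77050670). In the GENCODE M21 models of the same build, the haemoglobin genes and *Mb* have 3 coding exons and *Ngb* and *Cygb* have 4. FPKM sums the reads over the exons of a gene, so the values do not separate exons or transcript forms.

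Whether reads can tell the family members apart follows from their sequences, and the first 90 coding bases of the beta-like genes are shown for that reason. Capitals mark the bases that differ from *Hbb-bs* at the same position, and the sequences are from GENCODE M21.
Hbb-bs (chr7:103827786-103827875, minus strand): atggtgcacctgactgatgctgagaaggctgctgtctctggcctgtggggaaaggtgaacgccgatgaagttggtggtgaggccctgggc
Hbb-bt (chr7:103813780-103813869, minus strand): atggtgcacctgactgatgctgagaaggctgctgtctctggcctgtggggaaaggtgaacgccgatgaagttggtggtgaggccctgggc
Hbb-y (chr7:103853063-103853152, minus strand): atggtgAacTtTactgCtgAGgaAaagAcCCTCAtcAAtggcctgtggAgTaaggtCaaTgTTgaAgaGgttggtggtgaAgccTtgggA
Hbb-bh1 (chr7:103843021-103843110, minus strand): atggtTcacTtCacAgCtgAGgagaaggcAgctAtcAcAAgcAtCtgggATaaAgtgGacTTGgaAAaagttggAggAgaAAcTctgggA
The adult genes *Hbb-bs* and *Hbb-bt* were identical in this stretch, while *Hbb-y* differed from *Hbb-bs* at 26 of the 90 bases and *Hbb-bh1* at 29. Over the whole coding sequence of 441 bases, *Hbb-bs* and *Hbb-bt* were 99.8% identical, with 1 base different, and *Hbb-bs* and *Hbb-y* were 74.4% identical.

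The alpha-like genes are shown in the same way, with capitals for bases that differ from *Hba-a1*.
Hba-a1 (chr11:32283707-32283796, plus strand): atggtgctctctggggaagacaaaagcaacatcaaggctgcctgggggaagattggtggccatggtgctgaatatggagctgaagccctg
Hba-a2 (chr11:32296524-32296613, plus strand): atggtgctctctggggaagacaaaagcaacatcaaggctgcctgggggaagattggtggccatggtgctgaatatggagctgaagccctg
Hba-x (chr11:32276664-32276753, plus strand): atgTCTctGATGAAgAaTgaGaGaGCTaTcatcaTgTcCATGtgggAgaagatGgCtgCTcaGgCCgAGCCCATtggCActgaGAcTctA
*Hba-a1* and *Hba-a2* differed at 1 of their 426 coding bases, and *Hba-x* differed from *Hba-a1* at 44 of the 90 bases shown. Of all stretches of 150 bases, the length of a read, 48.4% of those in the *Hba-a1* transcript and 65.7% of those in *Hba-a2* occur unchanged in the other gene. For *Hbb-bs* and *Hbb-bt*, these shares were 58.7% and 50.7%. How the counting treated reads that match more than 1 gene is not stated in the sources, so the division of reads within each adult pair is uncertain. No such stretch of *Hbb-y*, *Hbb-bh1*, *Hba-x*, *Ngb*, *Cygb* or *Mb* occurs unchanged in a transcript of another gene of that annotation. *Cygb* overlaps *Prcd*, and *Mb* overlaps *Gm49540* and *Apol6*, each on the opposite strand. Whether strand was used in the counting is likewise not stated, so reads in the stretches where these pairs overlap cannot be told apart.

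*Srsf1* was lower in each cKO library. Mean *Srsf1* FPKM was 71.2 ± 8.61 in Ctrl against 35.3 ± 2.49 in cKO (SD, n = 3 each). For this difference limma gave an unadjusted p of 0.000158 and an adjusted p of 0.497 (Benjamini-Hochberg). Over all libraries, between 14212164 and 16784241 reads lay on genes. Germ cell and pregranulosa genes of the ovary were present, with *Ddx4* between 13.1 and 55.1 FPKM and *Foxl2* between 47.5 and 74.6 FPKM. The extraction text of the labels speaks of retina, while their tissue field says ovary. Photoreceptor genes, looked up for that reason, were near 0, with *Crx* listed at 0 in each library and *Sag* between 0.0974 and 0.385 FPKM. Ctrl 1 stood apart in blood genes, since 41 of 44 genes of red cell formation were highest in that library, and cKO 1 had the lowest value for 26 of the 44. Results that rest on these libraries are given with and without them.

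The levels of the family reached from the abundant mRNAs of adult haemoglobin to genes at nearly 0. Averaged over the 6 libraries, *Hba-a1* was at 4104 FPKM and *Hbb-bs* at 3932 FPKM, followed by *Hbb-bt* at 794 and *Hba-a2* at 557. *Hba-a1* and *Hbb-bs* changed places between libraries and did not differ beyond their spread, while *Hbb-bt* was above *Hba-a2* and both were below the other adult genes in each library. *Hbb-y* at 29.4 FPKM and *Cygb* at 24.3 came next, then *Hba-x* at 6.13, *Ngb* at 1.94, *Hbb-bh1* at 1.40 and *Mb* at 0.0766. *Cygb* was the fifth gene in 4 libraries, but in cKO 1 and cKO 3 it fell behind *Hbb-y*. A minimum mean of 0.5 FPKM was set for the fit over all genes, and 9 of the 10 members reached it, all but *Mb*.

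**Figure D1:**
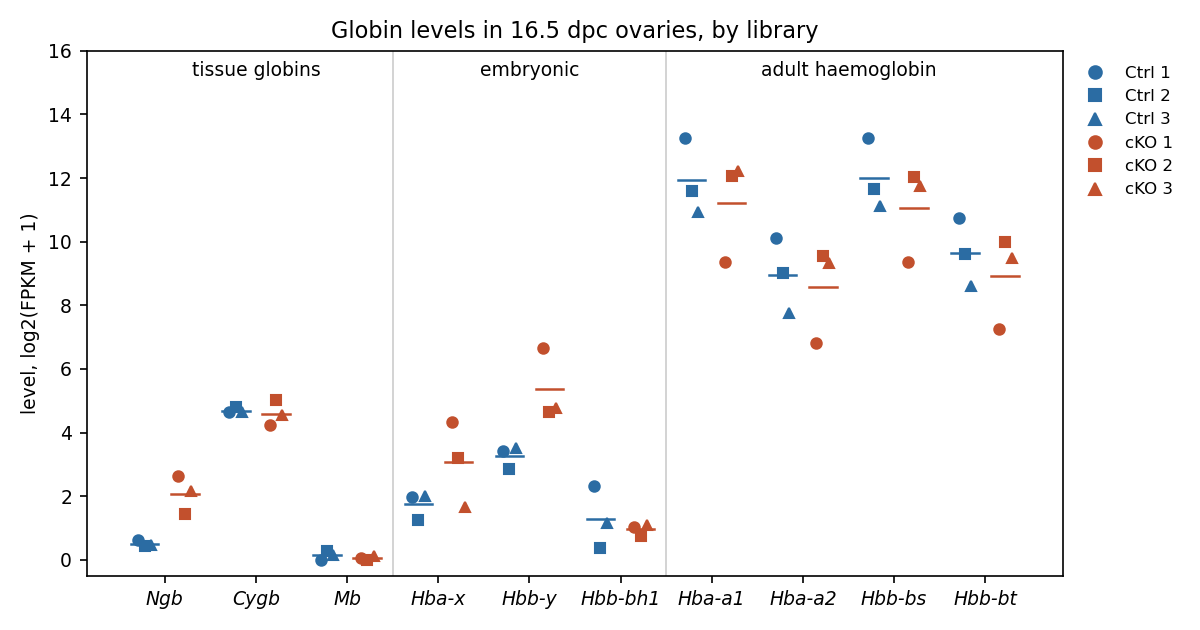
Level of each globin gene as log2(FPKM + 1) in each of the 6 libraries, with Ctrl in blue and cKO in red, symbols for replicates and a line at each group mean. *Ngb* and *Hbb-y* were higher in each cKO library than in any Ctrl library, and the adult haemoglobin genes were lowest in cKO 1 and highest in Ctrl 1.

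*Ngb* was scarce in Ctrl ovaries and higher in each cKO library. Ctrl 1, 2 and 3 had *Ngb* at 0.542, 0.358 and 0.365 FPKM, and cKO 1, 2 and 3 had it at 5.22, 1.69 and 3.47 FPKM. All cKO libraries lay above all Ctrl libraries, and the lowest cKO value was 3.13 times the highest Ctrl value. Behind these values stood 14, 10 and 11 reads in the Ctrl libraries against 139, 49 and 85 reads in the cKO libraries, so the Ctrl level rests on few reads. Mean FPKM was 0.422 ± 0.104 for Ctrl and 3.46 ± 1.76 for cKO (SD, n = 3 each), a ratio of 8.21. On the scale of log2(FPKM + 1), which understates changes at low levels, the difference was 1.57, and it was 2.65 at a pseudocount of 0.1. Between 1.29 without cKO 1 and 1.89 without cKO 2, the difference stayed above 0 with each library left out.

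*Hbb-y* was the other member whose groups did not overlap. Ctrl 1, 2 and 3 had 9.59, 6.15 and 10.5 FPKM of *Hbb-y*, against 99.6, 23.9 and 26.4 FPKM for cKO 1, 2 and 3. The library cKO 1 was far above cKO 2 and cKO 3, which were close to each other and at least 2.28 times the highest Ctrl value. In reads, these were 91, 63 and 116 for the Ctrl libraries and 975, 254 and 237 for the cKO libraries. The mean was 8.74 ± 2.29 FPKM for Ctrl and 49.97 ± 43.0 FPKM for cKO (SD, n = 3 each), a ratio of 5.72, and without cKO 1 the ratio was 2.88. On the log2 scale the difference was 2.10, and 1.45 without cKO 1. In bulk tissue, more cells of a type and more RNA per cell cannot be told apart, and this holds for each globin described here.

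These 2 of the 9 members that reached the minimum level had groups that did not overlap, both higher in cKO. Over all 17180 genes tested, the groups of 8.68% did not overlap, and those of 4.59% did not overlap with cKO higher. With cKO lower, the share of all genes was 4.1%. In limma, 2.68% of all genes tested were higher in cKO and 1.75% were lower by an unadjusted p below 0.05. Since the set was chosen for these rises, nothing is read from the count of members.

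*Hba-x*, the embryonic alpha-like gene, was high in cKO 1 and cKO 2 but not in cKO 3. It stood at 2.91, 1.38 and 2.99 FPKM in the Ctrl libraries, against 19.1, 8.20 and 2.18 FPKM in cKO 1, 2 and 3. The groups overlapped, because cKO 3 lay below Ctrl 1 and Ctrl 3. The log2 difference was 1.33, and it was 0.70 without cKO 1 and 2.03 without cKO 3. *Hba-x* and *Hbb-y* thus went apart in cKO 3, where *Hba-x* FPKM was 0.0826 of *Hbb-y* FPKM, while the largest such ratio was 0.343, in cKO 2.

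The third embryonic gene, *Hbb-bh1*, was at 4.02, 0.302 and 1.21 FPKM in Ctrl, and the cKO libraries had 1.06, 0.680 and 1.15 FPKM. Its Ctrl range enclosed all cKO values. Only 3 to 37 reads per library lay on *Hbb-bh1*, and the log2 difference of -0.32 became 0.20 without Ctrl 1.

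The adult genes went up and down together from library to library, and their groups overlapped. *Hbb-bs* was at 9809, 3254 and 2213 FPKM in Ctrl 1, 2 and 3, and cKO 1, 2 and 3 had 658, 4190 and 3466 FPKM. For *Hba-a1*, the Ctrl values were 9850, 3083 and 1963 FPKM and the cKO values 659, 4310 and 4761 FPKM. For both genes, Ctrl 1 was highest and cKO 1 lowest, and cKO 2 and cKO 3 were above Ctrl 2 and Ctrl 3. *Hbb-bt* ranged from 151 FPKM in cKO 1 to 1705 FPKM in Ctrl 1, and *Hba-a2* from 112 to 1103 FPKM in the same libraries. For the 4 genes, the log2 difference between cKO and Ctrl was -0.96 for *Hbb-bs*, -0.71 for *Hba-a1*, -0.75 for *Hbb-bt* and -0.40 for *Hba-a2*, each below the pooled SD within groups of between 1.28 and 1.42. Without cKO 1, these became -0.12, 0.21, 0.08 and 0.48, so the sign of 3 of the 4 rests on that library. Without Ctrl 1, *Hba-a2* also turned above 0.

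Within the adult pairs, the shares of reads were steadier than the levels. *Hbb-bt* took between 13.7% and 18.3% of adult beta reads, and *Hba-a2* took between 8.26% and 12.6% of adult alpha reads. Both ranges depend on how reads of the near-identical copies were divided. The summed FPKM of the adult alpha genes was 0.893 ± 0.0572 (SD, n = 3) times that of the adult beta genes in Ctrl and 1.07 ± 0.191 in cKO, with cKO 3 highest at 1.29. Haemoglobin reads made up between 0.388% and 1.69% of all reads on genes in Ctrl and between 0.129% and 0.796% in cKO.

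**Figure D2:**
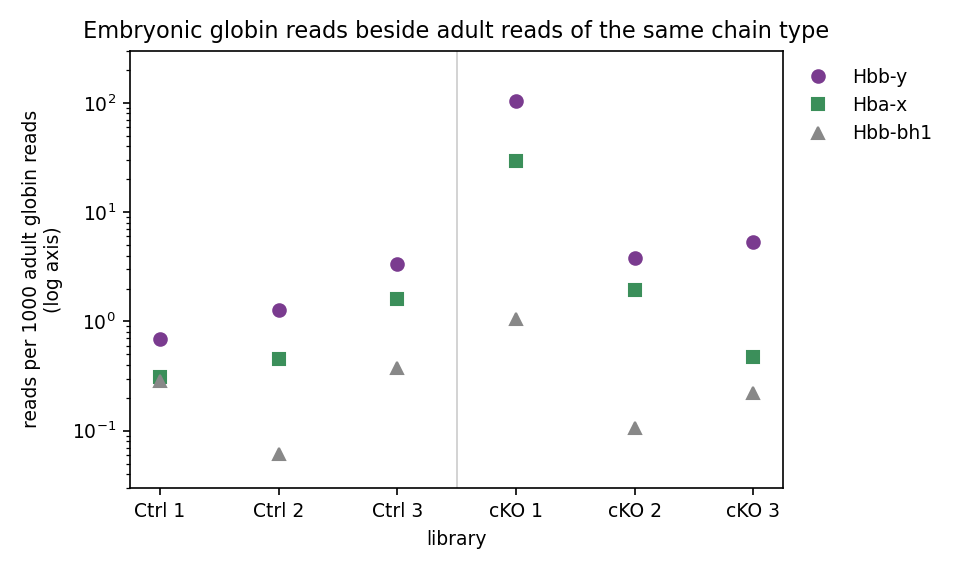
Reads of *Hbb-y* and *Hbb-bh1* per 1000 adult beta reads and of *Hba-x* per 1000 adult alpha reads, on a log axis, for each library. cKO 1 was highest for all 3 genes, with 103 for *Hbb-y* and 29.4 for *Hba-x*.

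Set against the adult reads of the same chain type, embryonic globin differed most in cKO 1. Per 1000 adult beta reads there were 0.695, 1.28 and 3.37 reads of *Hbb-y* in Ctrl 1, 2 and 3, against 103, 3.84 and 5.28 reads in cKO 1, 2 and 3. The value of cKO 1 was 148 times that of Ctrl 1, and both a high *Hbb-y* level and the lowest adult level enter it. As a share of *Hbb-y* and adult beta reads, *Hbb-y* was 0.335% in Ctrl 3 (95% exact binomial interval 0.277 to 0.402) and 0.383% in cKO 2 (0.337 to 0.433). In cKO 1 the share was 9.35% (8.80 to 9.93). Such intervals cover the counting error of 1 library only and serve for no comparison between groups. *Hba-x* reads per 1000 adult alpha reads were 0.313, 0.455 and 1.61 in Ctrl, against 29.4, 1.92 and 0.476 for cKO 1, 2 and 3, and the cKO 3 value lay within the Ctrl range.

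The promoters are shown because the adult genes moved together while *Hbb-y* and *Hba-x* did not follow them. Whether promoter sequence has a part in this was not tested. Each stretch holds the 250 bases before the RefSeq start of the gene (GRCm38.p6), and capitals mark matches to any of 5 short motifs on either strand, the GATA motif AGATAA, the CACCC box CCNCNCCC, in which N is any base, the CCAAT box CCAAT, the TATA box TATAAA and the core of the hypoxia response element ACGTG.
Hbb-y (chr7:103853208-103853457, minus strand): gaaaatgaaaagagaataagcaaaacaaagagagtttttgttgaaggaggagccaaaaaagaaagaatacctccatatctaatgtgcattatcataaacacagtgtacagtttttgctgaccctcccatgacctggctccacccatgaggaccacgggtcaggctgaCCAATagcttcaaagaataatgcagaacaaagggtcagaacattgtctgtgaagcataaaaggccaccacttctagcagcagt
Hbb-bs (chr7:103827929-103828178, minus strand): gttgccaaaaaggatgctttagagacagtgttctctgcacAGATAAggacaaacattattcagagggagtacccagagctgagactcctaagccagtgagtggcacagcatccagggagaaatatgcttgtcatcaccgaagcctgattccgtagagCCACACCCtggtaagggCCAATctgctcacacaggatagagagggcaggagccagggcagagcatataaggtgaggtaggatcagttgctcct
Hba-x (chr11:32276350-32276599, plus strand): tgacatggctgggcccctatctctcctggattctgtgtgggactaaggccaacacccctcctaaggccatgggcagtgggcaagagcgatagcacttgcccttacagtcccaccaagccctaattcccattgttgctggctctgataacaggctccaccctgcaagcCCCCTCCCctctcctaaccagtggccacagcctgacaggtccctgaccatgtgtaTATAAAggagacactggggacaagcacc
Hba-a1 (chr11:32283422-32283671, plus strand): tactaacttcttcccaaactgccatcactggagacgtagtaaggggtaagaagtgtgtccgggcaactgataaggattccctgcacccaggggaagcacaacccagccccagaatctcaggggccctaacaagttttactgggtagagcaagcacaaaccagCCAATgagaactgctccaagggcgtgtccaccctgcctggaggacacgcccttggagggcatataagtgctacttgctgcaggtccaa
CCAAT occurred in 5 of the 6 haemoglobin promoters with an entry, all but that of *Hba-x*, and in 33.8% of all 32851 promoters of that length. CCNCNCCC occurred in those of *Hbb-bs*, *Hbb-bt* and *Hba-x* and in 45.9% of all promoters, and AGATAA in that of *Hbb-bs* alone and in 9.99% of all. TATAAA occurred in those of *Hba-x* and *Hbb-bt* and in 12.4% of all. ACGTG occurred in 0 of the 6 and in 16.6% of all promoters. Over the 250 bases, *Hba-a1* and *Hba-a2* were 97.6% identical, *Hbb-bs* and *Hbb-bt* 69.3%, and *Hbb-bs* and *Hbb-y* 50.4%. Only these exact letters were sought, and near variants were left unmarked. Examples are tgataa in the stretches of *Hba-x* and *Hba-a1*, and catataa in those of *Hbb-bs* and *Hba-a1*. The lack of a match therefore does not mean that a promoter lacks such an element. A match to such short letters is a description of the sequence.

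The genes that a red cell precursor uses beside globin were read to place the globin values. They were taken as 3 lists, haem synthesis and iron supply, erythroid transcription factors, and red cell membrane and cytosol, with 44 genes tested. In limma, 0 of the 44 reached an unadjusted p below 0.05, where 4.43% of all 17180 genes tested did, and the smallest unadjusted p was 0.0616, for *Sptb*, the beta spectrin of the red cell. Voom on the recovered reads called 1 of the 44. Without Ctrl 3, 32 of the 44 genes passed, all lower in cKO, where 628 of all 17180 genes passed as lower in the same fit. The count of 0 thus rests on that library. The log2 difference was below 0 for 42 of the 44, with a median of -0.92, while the median over all genes tested was -0.00914. Single libraries moved this median, to -0.32 without Ctrl 1 and -0.58 without cKO 1, where 41 and 40 genes were below 0, and to -1.57 without Ctrl 3.

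The 19 tested genes of the red cell membrane and cytosol were all below 0, with a median of -1.14. The median was -0.48 without Ctrl 1, with 17 of 19 below 0, -0.66 without cKO 1 and -1.82 without Ctrl 3. *Slc4a1*, the anion exchanger band 3, had 334, 134 and 40.1 FPKM in Ctrl, against 5.17, 56.8 and 127 FPKM in cKO 1, 2 and 3. It was highest in Ctrl 1 and lowest in cKO 1, as the adult globins were. *Car2*, a carbonic anhydrase, ranged from 39.3 FPKM in cKO 1 to 380 FPKM in Ctrl 1, a log2 difference between groups of -1.17 with a standard error of 0.73 (limma, unadjusted p = 0.156, adjusted p = 0.978).

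Among genes of haem synthesis and iron supply, 11 of 12 were below 0, with a median of -0.65 that became -0.22 without Ctrl 1, -0.40 without cKO 1 and -1.12 without Ctrl 3. *Alas2*, the first enzyme of haem synthesis in red cell precursors, had 245, 79.6 and 40.6 FPKM in Ctrl, against 11.6, 76.0 and 115 FPKM in cKO. *Alas1*, its counterpart in other cells, stayed between 9.41 and 10.9 FPKM. The transferrin receptor gene *Tfrc* was at 171 FPKM in Ctrl 1 and between 40.9 and 98.6 FPKM elsewhere.

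Of the 13 erythroid transcription factors, 12 were below 0, with a median of -0.74. It became -0.29 without Ctrl 1, -0.57 without cKO 1 and -1.20 without Ctrl 3. *Klf1*, which acts on the adult beta-globin promoter, had 116, 70.7 and 15.4 FPKM in Ctrl, against 20.2, 22.9 and 29.2 FPKM in cKO. *Klf1* was thus higher in Ctrl 2 than in any cKO library, although *Hbb-bs* was higher in cKO 2 and cKO 3 than in Ctrl 2. *Ldb1*, a partner of GATA1 complexes that other cells also use, stayed between 44.2 and 83.9 FPKM.

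**Figure D3:**
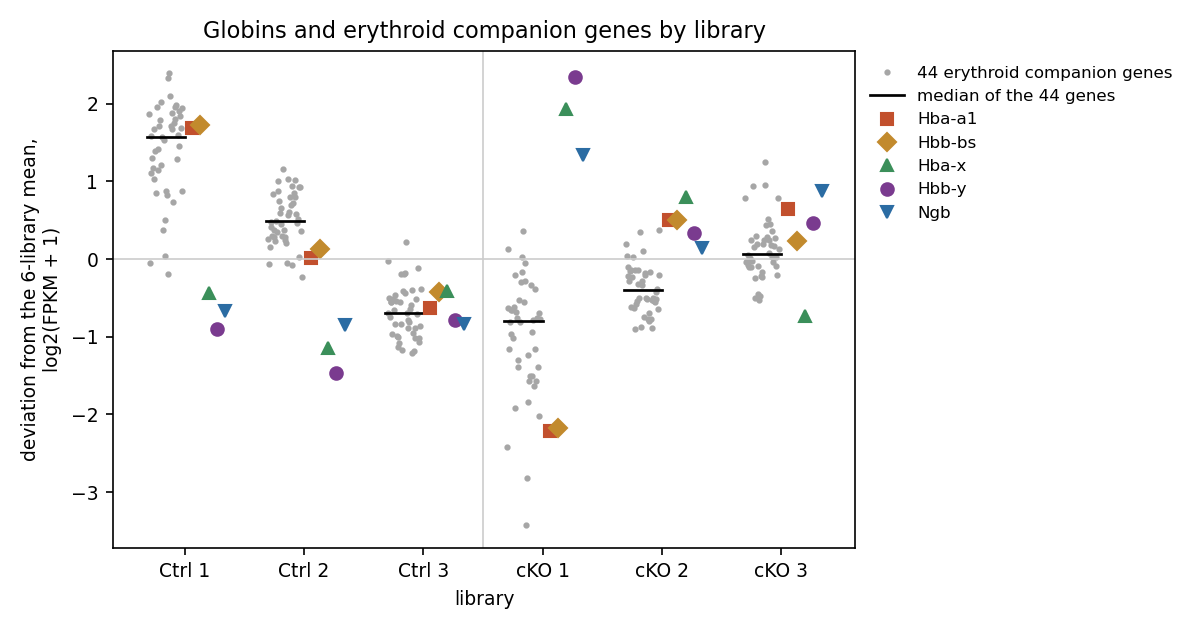
Deviation of each gene from its own mean over the 6 libraries, in log2(FPKM + 1), for the 44 erythroid genes (grey, with the median as a line) and 5 globins (coloured). *Hba-a1* and *Hbb-bs* were highest in Ctrl 1 and lowest in cKO 1, as most of the grey genes were, while *Hbb-y* and *Ngb* were highest in cKO 1.

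Over the 6 libraries, the mean level of the red cell list and that of *Hbb-bs* had a Pearson r of 0.87, and r was 0.87 for *Hba-a1*. For *Hbb-y* and *Hba-x*, r was -0.67 and -0.69, and for *Ngb* it was -0.51. These are descriptions over 6 libraries of both groups, which share depth and the division by library size within each point. The ratio of *Hbb-bs* FPKM to *Slc4a1* FPKM was between 24.2 and 55.2 in Ctrl and was 127, 73.8 and 27.3 in cKO 1, 2 and 3, so globin and membrane genes did not keep to 1 ratio.

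Genes whose level over the 6 libraries was most like that of a globin were picked by Pearson r of log2(FPKM + 1). For *Ngb* they were *Bnip3*, *Gm37074* and *Dnpep*, each with r = 0.99. *Hbb-y* was most like *Ttc7b*, *Gm7541* and *Cux1*, each with r = 0.99, and *Gm7541* was at 0.115 to 0.214 FPKM in Ctrl and 1.00 to 3.38 FPKM in cKO. *Hbb-bs* was most like *Plpp2*, *Kcnd1* and *Adipor1*, and *Adipor1* followed it from 41.5 FPKM in Ctrl 1 to 19.8 FPKM in cKO 1. *Cygb* was most like *Dynll2*, *Stub1* and *Mybpc3*, and r was between 0.988 and 0.998 for these 6 genes. Within the family, r was between 0.95 and 0.99 for *Hbb-bs* with the other adult genes. It was 0.94 for *Hbb-y* with *Ngb* and 0.87 for *Hbb-y* with *Hba-x*. As *Ngb* and *Hbb-y* were both chosen for higher values in cKO, a high r between them follows in part from that choice. The genes most like them were picked by the highest r among all genes tested, so they too tend to be higher in cKO.

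*Cygb*, the tissue globin with the most reads, differed little between groups. The Ctrl libraries had 24.1, 26.6 and 23.8 FPKM of *Cygb*, against 17.7, 31.6 and 22.2 FPKM for cKO. The cKO values enclosed those of Ctrl, and the ratio of the highest library to the lowest was 1.79, where that of *Hbb-bs* was 14.9. Its mean was 24.8 ± 1.55 FPKM for Ctrl and 23.8 ± 7.09 FPKM for cKO (SD, n = 3 each), a log2 difference of -0.10 that was 0.09 without cKO 1. Stroma genes, among them the collagen gene *Col1a1*, gave 0 of 6 past the unadjusted limit in limma, where 4.43% of all genes tested passed. *Mb* was at or near 0 in each library, with 0, 5 and 3 reads in Ctrl against 1, 0 and 2 reads for cKO. A count of 0 allows up to 3 reads in such a library, and no difference in *Mb* was detectable at this depth.

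**Figure D4:**
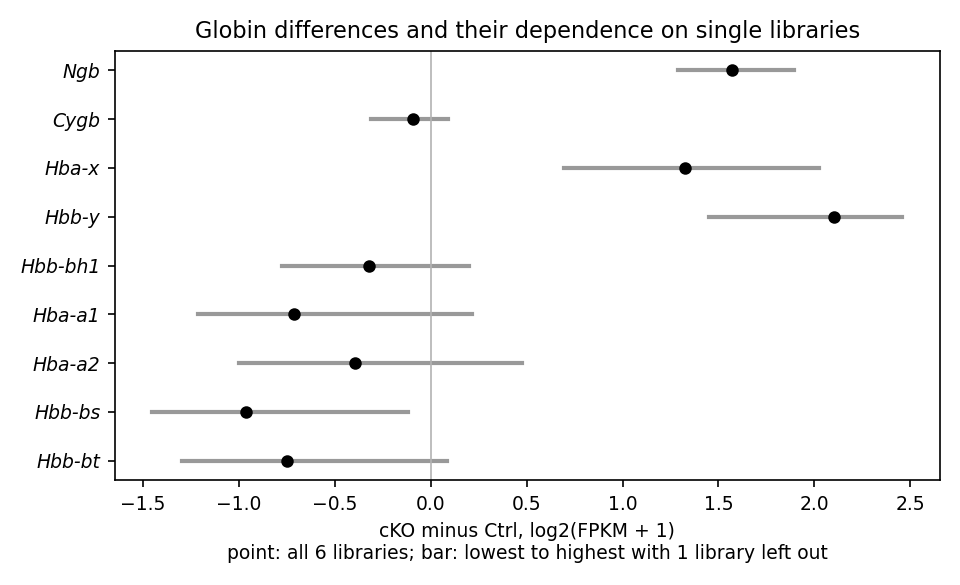
Difference between cKO and Ctrl in log2(FPKM + 1) for the 9 globins at or above the minimum level, with all 6 libraries (point) and from lowest to highest with 1 library left out (bar). The bars of *Ngb*, *Hba-x* and *Hbb-y* stayed above 0 and that of *Hbb-bs* below 0, and the other 5 crossed 0.

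Of the further globin genes outside the set of 10, all but *Hbq1b* lay under the minimum level. *Hbq1b*, a theta-like gene of the alpha cluster, had 25.6, 5.71 and 3.08 FPKM in Ctrl, against 1.16, 6.16 and 14.9 FPKM in cKO, with the highest and lowest libraries of the adult genes, and it did not pass in limma (unadjusted p = 0.579, adjusted p = 0.986). *Adgb*, which encodes androglobin, a large protein with a globin domain known from testis, was lower in each cKO library. It had 15, 41 and 52 reads in Ctrl, against 3, 3 and 2 reads for cKO. *Adgb* lay under the minimum level, and an exact permutation test of its level, two-sided, gave p = 0.1, the smallest that 3 libraries against 3 allow. Without the minimum, limma gave an unadjusted p of 0.00694 and an adjusted p of 0.882. *Hbb-bh2*, *Hbb-bh3* and *Hba-ps3* were listed at 0 in each library, and *Hbq1a*, *Hbb-bh0* and *Hba-ps4* had at most 6 reads in any library.

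The genes next to the globins were read because position was not used to choose the set. *Ngb* lies between *Tmem63c*, 7487 bases away and at most 0.168 FPKM, and *Pomt2*, an enzyme of protein mannosylation 4321 bases away. *Pomt2* was between 5.94 and 8.78 FPKM, a log2 difference of 0.12 with a standard error of 0.15 (limma, adjusted p = 0.982). *Nprl3*, beside *Hba-x*, was between 6.35 and 8.84 FPKM, with a log2 difference of -0.15 and a standard error of 0.13. The olfactory receptor genes *Olfr67* and *Olfr66*, which border the beta cluster, were listed at 0. *Rhbdf2* and *1810032O08Rik* flank *Cygb*, and *1110038F14Rik* and *Rbfox2* flank *Mb*. Of the 7 flanking genes tested, counting *Hbq1b* within the alpha cluster, 0 passed an unadjusted p below 0.05 in limma under every alternative used, voom included. Of all genes tested, 4.43% passed, so a count of 0 among so few genes says little.

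Genes of the hypoxia response were read beside *Ngb* because neuroglobin is often studied under low oxygen. Of 14 such genes, 5 had a log2 difference above 0 and 9 below, and 1 reached an unadjusted p below 0.05, where 2.68% of all genes tested passed as higher in cKO. This was *Bnip3*, a receptor that marks mitochondria for removal, which is also the gene most like *Ngb* above. As *Ngb* was chosen for higher values in cKO, a gene most like it is higher there too. The likeness therefore adds nothing to the call. *Bnip3* had 9.57, 9.30 and 9.25 FPKM in Ctrl, against 13.4, 10.9 and 12.9 FPKM in cKO, and the groups did not overlap. Its log2 difference was 0.37 with a standard error of 0.12 (limma, unadjusted p = 0.0188, adjusted p = 0.978), and the unadjusted p was between 0.0546 and 0.0687 without Ctrl 2, Ctrl 3, cKO 1 or cKO 3. *Vegfa*, *Ldha* and *Pgk1*, common targets of hypoxia-inducible factors, had log2 differences of 0.05, 0.00344 and -0.09. The groups of 3 of the 14 genes did not overlap, where those of 8.68% of all genes tested did not. Of these, *Bnip3* was higher in cKO, and *Car9* and *Egln3* were lower. *Car9*, a carbonic anhydrase of the cell surface, had 2.20, 3.19 and 2.29 FPKM in Ctrl, against 2.19, 2.17 and 1.93 FPKM in cKO (limma, unadjusted p = 0.259, adjusted p = 0.978). *Egln3*, a prolyl hydroxylase that acts on hypoxia-inducible factors, had 2.91, 3.64 and 3.42 FPKM in Ctrl, against 2.62, 2.44 and 2.83 FPKM in cKO (limma, unadjusted p = 0.103, adjusted p = 0.978).

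Markers of cells in which *Ngb* or *Mb* are known had 2 of 4 neuron genes and 2 of 5 muscle genes above 0 among those tested. No listed neuron gene was above 2.22 FPKM, while the muscle genes *Tnni1* and *Des* reached 13.2 and 7.05 FPKM. The neuron genes *Nefl* and *Nefm*, under the minimum level, had groups that did not overlap, both lower in cKO. With cKO lower, the groups of 4.1% of all genes tested did not overlap. Of the other neuron genes under the minimum level, *Elavl3* was below 0, and *Stmn2*, *Elavl4*, *Snap25* and *Rbfox3* were above 0. All these groups overlapped. Of all genes tested, 1.75% passed as lower and 2.68% as higher. Of 4 neuron genes tested, *Syt1*, a synaptic vesicle protein, passed as lower in cKO, with 1.65 FPKM as the mean in Ctrl and 1.05 in cKO (limma, unadjusted p = 0.0321, adjusted p = 0.978), and summed over the 11 listed genes the level was 6.81 to 8.64 FPKM in Ctrl and 5.75 to 6.69 in cKO. Without the minimum level, under the replicate block or without any single library but cKO 1, *Syt1* did not pass. Of 5 muscle genes tested, *Tnni1*, a slow troponin, passed as higher (limma, log2 difference 0.56, unadjusted p = 0.0291, adjusted p = 0.978). This call was lost when Ctrl 2, Ctrl 3, cKO 1 or cKO 2 was left out, and the groups of *Tnni1* overlapped. *Tnnc1*, also a troponin gene, was lower in cKO with groups that did not overlap. It had 1.15, 1.01 and 0.660 FPKM in Ctrl, against 0.621, 0.401 and 0.474 FPKM in cKO (limma, log2 difference -0.37, unadjusted p = 0.0686, adjusted p = 0.978). *Tnnc1* passed without the intensity trend and without Ctrl 3. *Ckm*, the muscle creatine kinase gene, was at most 0.123 FPKM.

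Germ cell genes differed between libraries of the same group. Summed over 6 germ cell markers, the level was 111, 214 and 396 FPKM in Ctrl 1, 2 and 3, against 456, 192 and 518 FPKM in cKO 1, 2 and 3. *Dazl*, an RNA-binding protein of germ cells, had 23.0, 39.1 and 80.0 FPKM in Ctrl, against 169, 56.8 and 219 FPKM in cKO, a log2 difference of 1.60 with a standard error of 0.61 (limma, unadjusted p = 0.0345, adjusted p = 0.978). The other 5 markers without *Dazl* summed to 88.3, 175 and 316 FPKM in Ctrl, against 288, 135 and 299 FPKM in cKO, with Ctrl 3 highest. *Dazl* was the 1 gene of the 6 that passed, where 2.68% of all genes tested passed as higher in cKO. This call was lost when Ctrl 1, Ctrl 2, cKO 1 or cKO 3 was left out. Ctrl 3, with a sum of 396 FPKM, had *Ngb* at 0.365 FPKM, and cKO 2, with 192 FPKM, had it at 1.69 FPKM. Within cKO, both the sum and *Ngb* were lowest in cKO 2. Within Ctrl, the sum was lowest in Ctrl 1, at 111 FPKM, where *Ngb* was highest, at 0.542 FPKM. The part of germ cell content in the *Ngb* values was not tested.

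**Figure D5:**
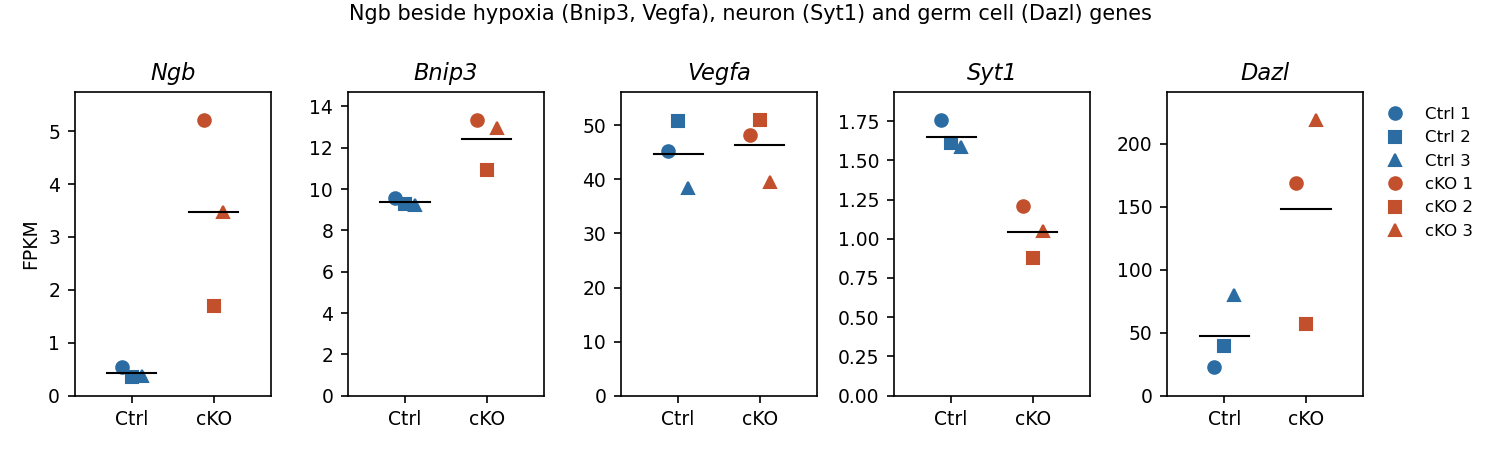
FPKM of *Ngb*, of the hypoxia genes *Bnip3* and *Vegfa*, of the neuron gene *Syt1* and of the germ cell gene *Dazl* in each library, with a line at each group mean and axes that start at 0. The groups overlapped for *Vegfa* and *Dazl* and did not for *Ngb*, *Bnip3* and *Syt1*.

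Other blood cells and disposal of haemoglobin were read in the same way. *Gp9*, a platelet glycoprotein, had 7.57, 6.38 and 2.34 FPKM in Ctrl, against 1.32, 1.22 and 1.92 FPKM in cKO, a log2 difference of -1.27 with a standard error of 0.36 (limma, unadjusted p = 0.0095, adjusted p = 0.978), and 1 of 5 megakaryocyte genes passed, where 1.75% of all genes tested passed as lower in cKO. *Pf4*, another platelet gene, was between 3.23 and 5.27 FPKM with a log2 difference of 0.02. *Ppbp*, which encodes a platelet chemokine, had 0.246, 0.114 and 0.476 FPKM in Ctrl, against 2.27, 0.165 and 0.780 FPKM in cKO, and did not pass (log2 difference 0.58, limma, unadjusted p = 0.166, adjusted p = 0.978). Of 9 genes of haemoglobin and haem disposal, 0 passed, and *Fth1*, the ferritin heavy chain gene, was at 1487 FPKM in Ctrl 1 and between 641 and 880 FPKM elsewhere. Among 9 genes that reduce globins or remove reactive oxygen, 0 passed, and *Sod1*, a superoxide dismutase, was at 63.2 to 64.8 FPKM in Ctrl and 35.8 to 59.7 FPKM in cKO (limma, unadjusted p = 0.0591, adjusted p = 0.978). Lists of pregranulosa, endothelium, macrophage and fetal liver cells gave 0 genes past the unadjusted limit in limma. Of all genes tested, 4.43% passed, so counts of 0 in lists this short say little. The defining genes of fetal liver cells were low, with *Alb* between 0.305 and 2.52 FPKM and *Afp* between 0.792 and 2.98 FPKM.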

How the data were processed

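RNA of 6 ovary libraries, 3 Ctrl and 3 cKO, was compared, with groups and replicate numbers taken from the sample labels. The authors aligned paired-end reads of 150 bases to GRCm38 with HISAT2 2.0.5, counted them with featureCounts and deposited FPKM values per gene. Neither the annotation release nor the strand setting is given in the sources used here. FPKM multiplied by gene length and divided by what 1 read is worth in each library, a factor found from the lowest values, gave whole reads within 0.05 of a read for 100% of values. These reads serve for depth, shares and voom, and the library size that the factor implies was between 0.965 and 1.04 times the reads on genes.

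The 10 members, the gene lists and the motifs were chosen with earlier results of these data known. In R 4.3.3, limma 3.58.1 was fitted with an intensity trend to log2(FPKM + 1), the genotype being its sole term, for 17180 genes whose mean FPKM was 0.5 or more. Tests were two-sided. A gene was called at an unadjusted p below 0.05, as in the study, and calls after Benjamini-Hochberg adjustment at 0.05 were also counted. In all, 460 genes were higher and 301 lower at the unadjusted limit and 0 passed the adjusted one, with a smallest adjusted p of 0.392. Members were given no p. Named were the members, further globins, flanking protein-coding genes, *Srsf1*, listed genes past the unadjusted limit with up to 3 others of the highest mean FPKM in a list, and the 3 genes most like *Ngb*, *Hbb-y*, *Hbb-bs* and *Cygb*. *Sptb*, *Alas1*, *Ckm*, *Car9*, *Egln3*, *Ppbp*, *Ddx4* and the photoreceptor genes were named after their values had been seen. So were the neuron genes *Nefl*, *Nefm*, *Elavl3*, *Stmn2*, *Elavl4*, *Snap25* and *Rbfox3*. Values of some single genes that fall under the rule are left out of the text.

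Coding sequences and stretches of 150 bases came from GENCODE M21 and promoters from RefSeq, which held 7 of the 10 members. Coding lengths leave out the stop codon. Identities are from global alignments with Biopython 1.88. Alternatives were each library left out, the replicate block, voom, quantile normalization, median-ratio scaling, a fit without the intensity trend, pseudocounts of 0.1 and 0.5, and a minimum of 1 FPKM or none.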

Additional observations from a re-analysis of the deposited data

How the results depend on the processing

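At an unadjusted p below 0.05, 761 genes were called in limma, 1331 without a minimum level, and between 364 (without Ctrl 2) and 2493 (without cKO 2) with 1 library left out, with 1176 without Ctrl 3, 441 without cKO 1 and 424 without cKO 3. The 460 higher and 301 lower genes became 243 and 382 without Ctrl 1 and 548 and 628 without Ctrl 3, so lower genes were then the larger part. Without Ctrl 1, 4 genes passed an adjusted p below 0.05. The count of 0 erythroid genes became 1 under voom and between 0 and 32 with 1 library left out, 32 without Ctrl 3, 1 without cKO 2 and 2 without cKO 3. Globins with a log2 difference above 0 numbered 3 of 9, and between 3 and 7 with 1 library left out, 5 without Ctrl 1 and 7 without cKO 1. Other alternatives kept these counts within 1.5 times the reported ones, and the flanking genes stayed at 0. *Ngb* reached 2.65 at a pseudocount of 0.1 and 2.86 under voom. Among the listed genes, the genes beside or overlapping the members and *Srsf1*, no log2 difference past the limit changed sign. The other genes called were not checked for this. The replicate block called 681 genes, 0 of them among the 44 erythroid genes. Deviations of same-numbered libraries had correlations of -0.389, -0.0297 and 0.117, against -0.343 to 0.350 for differently numbered ones. These values gave no sign that the numbers pair the samples, but so few of them cannot exclude it. *Ngb* in Ctrl, *Mb*, *Hbb-bh1* and *Adgb* rest on few reads, which limits what can be said of them.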
